A study of Drosophila melanogaster with 5 samples.

Results

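The genes described here encode the core of the microRNA (miRNA) and small interfering RNA (siRNA) pathways of the fly. The list of 10 genes was drawn up with earlier results of these data known. Probe sets were then taken by name, as those whose single gene symbol was a listed gene. In this way 7 of the 10 genes were found, each with 1 probe set among the 18769 tested, which name 11982 genes in all. These were drosha, pasha, Ranbp21, loqs, gw, Dcr-2 and r2d2. For Dcr-1, AGO1 and AGO2 no probe set carried the symbol alone, and they were not analysed here, so that the values below say nothing of either Argonaute or of the miRNA-producing Dicer.

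Transcript levels were measured on 5 Affymetrix Drosophila 2.0 arrays hybridised with RNA of cephalic complexes, that is, brain lobes with the eye discs, of 3rd instar larvae. The control group was FRT82B larvae (a stock with a recombination target site) at day 0, with 2 arrays, and the mutant group was lgl27S3/lglE2S31 larvae at day 4, with 3 arrays. The mutants carry a pair of null alleles of lethal giant larvae (lgl), a tumour suppressor of cell polarity, in every cell, and stay in the 3rd instar while their brains and discs overgrow. Each array held pooled RNA (20 pairs of complexes by the series design, 20 complexes by the study's methods), and the study's text names w1118 and not FRT82B as the control. Since wild-type larvae pupate, no control as old as the mutants was compared, and genotype and age cannot be told apart in any difference below.

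In the nucleus, the RNase Drosha and its RNA-binding partner Pasha cut hairpins out of primary miRNA transcripts, and Ranbp21, the fly Exportin-5, carries the hairpins to the cytoplasm. There Dicer-1 and its partner Loquacious trim them to mature miRNAs, which Argonaute-1 holds, and the GW182 protein encoded by gw links Argonaute-1 to the enzymes that shorten and decap target mRNAs. The siRNA pathway, an antiviral defence, runs in parallel: Dicer-2 cuts long double-stranded RNA, and R2D2 helps it to load the products into Argonaute-2. The question of interest was whether the transcripts of this machinery differ in lgl tumour tissue. The study examined miRNA levels in such tissue too, but with another pair of lgl alleles and at other days. Its control there was mutants that carry an lgl rescue transgene.

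Values are log2 expression after RMA (robust multi-array average) normalisation, so that a difference of 1 is a doubling. Differences are given as lgl day 4 minus FRT82B day 0, with their standard error (SE), 95% interval and Benjamini-Hochberg adjusted p from limma, a linear model fitted over all 18769 probe sets. Calls needed both an adjusted p under 0.05 and a log2 change of 1 or more in size, the cut-offs that the study used for mRNAs. Levels of different genes are not compared, since each probe set has its own brightness. In pooled tissue, fewer cells of a type and less RNA per cell cannot be told apart.

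None of the 7 member genes was called changed. limma called 0 of 7, where 1.05% of all probe sets were called, and also 0 of 7 at an adjusted p under 0.05 with any fold, where 1.63% of all probe sets passed. At an unadjusted p under 0.05 there were 2 of 7, pasha and Dcr-2, against 18.4% of all probe sets. The changes ran from -0.44 to 0.43, with 3 above and 4 below 0 and a median of -0.03, and the median over all probe sets was -0.03 as well. The median size of change was 0.31 over the members, 0.14 over all probe sets and 0.30 over the 9384 probe sets brighter than the median. For 6 of the 7 genes the 95% interval lay within 1 in either direction, and that of Ranbp21 reached 1.10.

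**Figure D1:**
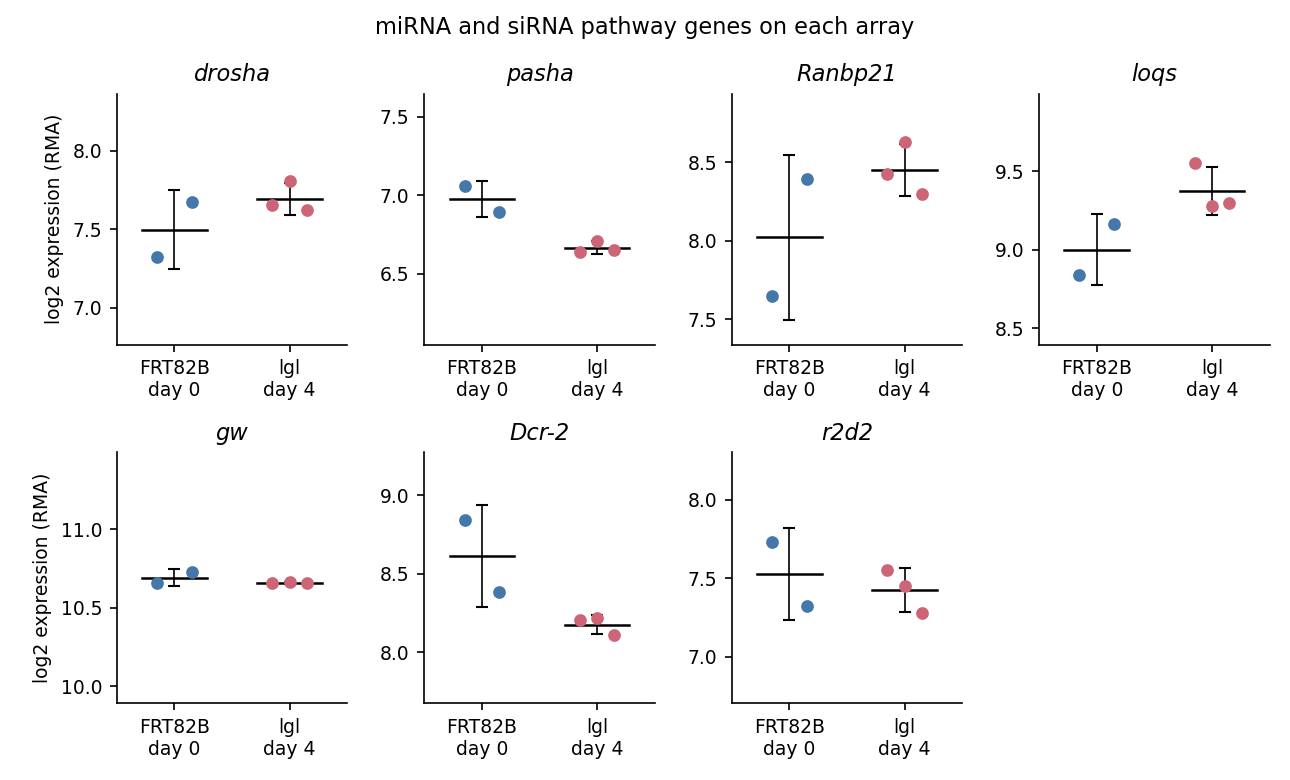
Log2 expression (RMA) of the 7 measured members on each array, FRT82B day 0 in blue (2 arrays) and lgl day 4 in red (3 arrays), with the mean as a line and the SD as a bar; each panel spans 1.6 log2 units. The groups are apart for pasha, loqs and Dcr-2 and overlap for the other 4 genes, and the FRT82B arrays lie further apart than the lgl arrays in every panel.

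None of the 3 genes of the nuclear steps was called, and their changes in value were above 0 for drosha and Ranbp21 and below 0 for pasha. The transcript of drosha, the RNase, read 7.32 (array 1) and 7.67 (array 2) in FRT82B, and 7.66, 7.81 and 7.62 in the mutant (lgl arrays 1, 2 and 3). This order holds for all values below. FRT82B array 2 thus lay inside the lgl range and array 1 below it, and the change was 0.20 (SE 0.13, interval -0.16 to 0.55, limma adjusted p = 0.479). The transcript of pasha, its partner, read 7.06 and 6.90 in FRT82B and 6.64, 6.71 and 6.65 in lgl. Here all lgl arrays were below both FRT82B arrays, by 0.31 on average or 1.24 times (SE 0.08, interval -0.52 to -0.11), which did not pass after adjustment (limma adjusted p = 0.144). The lgl arrays of pasha differed among themselves by only 0.07. Ranbp21, the export receptor, read 7.65 and 8.40 in FRT82B and 8.42, 8.63 and 8.30 in lgl. Its change of 0.43 (SE 0.25, interval -0.24 to 1.10, limma adjusted p = 0.437) was the largest rise in value and also the least certain, since FRT82B array 1 alone was low. Against that array the lgl mean was 0.80 higher, and against FRT82B array 2 it was 0.06 higher.

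Of the genes that act in the cytoplasm on miRNAs, loqs and gw were measured and neither was called. The loqs gene makes several protein forms, which serve Dicer-1 and, in 1 form, Dicer-2, and its probe set is of a kind that Affymetrix marks as shared by transcript variants, so that the forms cannot be told apart. It read 8.84 and 9.16 in FRT82B and 9.55, 9.28 and 9.29 in lgl, with all lgl arrays above both FRT82B arrays. The change was 0.37 or 1.30 times (SE 0.14, interval -0.01 to 0.76) and did not pass (limma adjusted p = 0.284). The gw probe set, of a kind that can also pick up transcripts of related sequence, read 10.66 and 10.73 in FRT82B and 10.66, 10.67 and 10.66 in lgl. With a change of -0.03 (SE 0.06, interval -0.19 to 0.12, limma adjusted p = 0.787), gw had the narrowest interval of the 7 genes, and its sign turned to 0.06 when the arrays were quantile normalised again and to 0.02 when they were centred on their medians.

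On the siRNA side, Dcr-2 was lower in value on every lgl array while its partner r2d2 overlapped. Dcr-2 read 8.84 and 8.38 in FRT82B and 8.20, 8.22 and 8.11 in lgl. The mean difference of -0.44, or 1.35 times lower (SE 0.15, interval -0.85 to -0.03), was the deepest of the members and did not pass after adjustment (limma adjusted p = 0.247). The FRT82B arrays differed from each other by 0.46 at this probe set, more than the mean difference between the groups. r2d2 read 7.73 and 7.32 in FRT82B and 7.55, 7.45 and 7.27 in lgl, so that its lgl values lay between and just below the FRT82B values. The change was -0.10 (SE 0.16, interval -0.53 to 0.32, limma adjusted p = 0.757), and its sign depended on the control array, being -0.31 against FRT82B array 1 and 0.11 against FRT82B array 2.

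**Figure D2:**
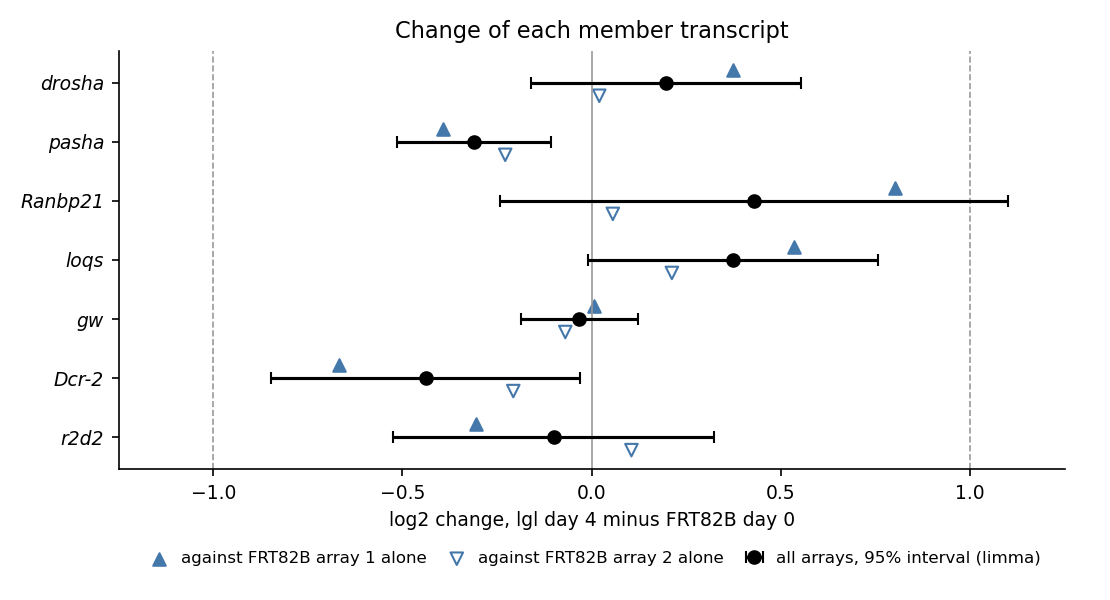
Log2 change of each member, lgl day 4 minus FRT82B day 0, with limma's 95% interval over all 5 arrays (black) and the lgl mean against FRT82B array 1 or 2 alone (triangles); dashed lines mark the fold threshold of 1. All black points lie between -0.44 and 0.43, and against array 2 alone every change lies between -0.23 and 0.21.

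The arrays of the groups did not overlap for 3 of the 7 genes. All lgl arrays were higher for 1 gene, loqs, against 14.7% of all probe sets, and lower for 2, pasha and Dcr-2, against 20.2%. The background in both directions together was 34.9%, and 48.0% over the brighter probe sets, so that 3 of 7 is near what probe sets show at large. The sizes depended on the control array used, and with 2 control arrays against 3 mutant arrays some of this is built in. The FRT82B arrays were further apart than the lgl arrays for 7 of 7 members, as for 59.1% of all probe sets and 71.4% of the brighter ones. Array 2 was the nearer of the FRT82B arrays to the lgl mean for 6 of 7 members, all but gw, as for 59.7% of all probe sets and 68.1% of the brighter ones. Without FRT82B array 2 the changes were -0.39 for pasha and -0.67 for Dcr-2, and without FRT82B array 1 they were -0.23 and -0.21. Each of these fits has a lone control array and takes its spread from the mutants.

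Around this core, 53 further genes of small RNA function were measured, of 56 on 6 fixed lists, together with probe sets of 2 primary miRNA genes. Of these 60 probe sets 1 rose, 1 fell and 58 were not called, and 18 (30.0%) had an unadjusted p under 0.05. Over all probe sets the shares were 1.05% called and 18.4% at an unadjusted p under 0.05, and over the brighter ones 2.06% and 31.0%, so that the wider lists were near the brighter probe sets. Their median change was -0.04. The gene that rose was Patr-1, the fly Pat1 protein, which joins the decapping enzyme to mRNAs released from their poly(A) tails, a step downstream of GW182. Patr-1 read 5.72 and 5.70 in FRT82B and 7.92, 7.69 and 7.53 in lgl. The groups were thus far apart, and the FRT82B arrays nearly equal. The change was 2.00, or 4.01 times (SE 0.13, limma adjusted p = 0.0214), and it lay between 1.90 and 2.10 in all 11 alternatives, but the call was lost in 6 of them. These were array weights (adjusted p = 0.129), the replicate block (0.308) and the fits without FRT82B array 1 (0.0572) or any 1 lgl array (0.125 to 0.154).

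The rest of the decay list was not called. It held 18 measured genes of 20, with 19 probe sets and a median change of -0.01. The decapping factor gene DCP1 read 7.51 and 8.29 against 8.36, 8.48 and 8.59, and the exonuclease gene pcm 7.43 and 8.25 against 8.46, 8.55 and 8.26. Not10, of the CCR4-NOT deadenylase, read 6.61 and 7.44 against 7.78, 7.79 and 7.76. In these 3 genes all lgl arrays were above the FRT82B arrays and FRT82B array 1 was the low one, with changes of 0.58, 0.58 and 0.75 (limma adjusted p = 0.337, 0.358 and 0.236). Without FRT82B array 2 the change of Not10 was 1.17, and without FRT82B array 1 it was 0.34. In all, 7 of the 19 probe sets of the list had every lgl array higher, against 14.7% of all probe sets. Every lgl array was lower for 4, against 20.2%. Both directions together made 57.9% of the list, against 34.9% of all probe sets and 48.0% of the brighter ones. Of the lower ones, named after their values were seen, the P-body helicase gene me31B read 10.47 and 10.28 against 9.92, 9.89 and 9.60 (-0.57, limma adjusted p = 0.127). The decapping scaffold gene Ge-1 read 8.55 and 8.70 against 8.26, 8.35 and 8.17 (-0.37, limma adjusted p = 0.140). Not11, of the CCR4-NOT complex, read 8.68 and 8.46 against 8.11, 7.96 and 8.01 on its brighter probe set (-0.54, limma adjusted p = 0.0864), while its dim probe set had every lgl array higher (0.17, limma adjusted p = 0.327). The last of the lower ones, twin, changed by -0.25 (limma adjusted p = 0.338). On the higher side stood also Larp4B (0.43, limma adjusted p = 0.0543) and PAN2 (0.54, limma adjusted p = 0.173), likewise named after their values were seen. The list thus held values on both sides of 0, with smaller and larger adjusted p on each side.

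**Figure D3:**
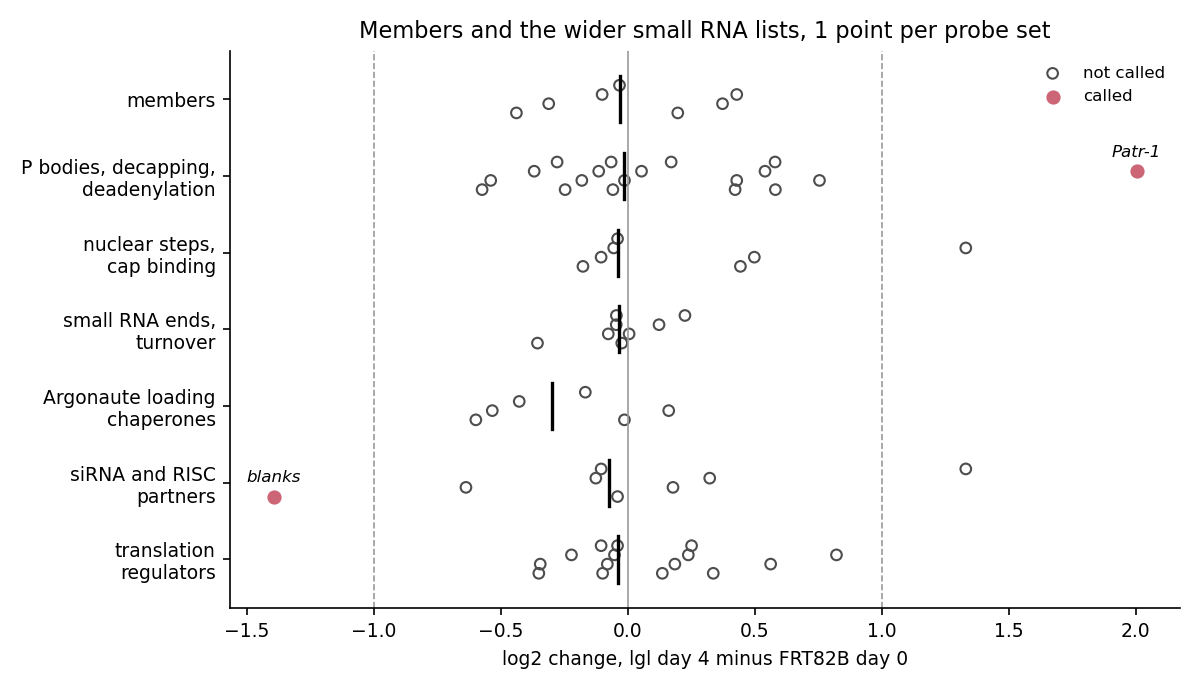
Log2 change, lgl day 4 minus FRT82B day 0, of the 7 members and of the 6 wider lists, 1 point per probe set, with the list's median as a bar and dashed lines at the fold threshold of 1; Fmr1 and Rm62 stand on more than 1 list. Only Patr-1 (2.00) and blanks (-1.39) were called, and Rm62 (1.33) was past the fold threshold without passing the test.

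The gene that fell was blanks, which encodes a double-stranded RNA-binding protein known for binding siRNAs in the testis. Its values were 4.38 and 4.65 in FRT82B and 3.26, 2.90 and 3.20 in lgl. In lgl this lies under the median of each array (3.79 to 3.82), where RMA compresses differences, so that the fold may be understated. The change was -1.39 (SE 0.15, limma adjusted p = 0.0385), and the call was lost in 6 of the 10 alternatives that kept the probe set, while the change stayed between -1.53 and -1.26. Among the other 6 of the 7 measured genes of the siRNA and RISC list none was called. vig, named for its place within the vasa gene and known as a RISC component, read 8.47 and 8.27 against 7.86, 7.70 and 7.63 (-0.64, SE 0.11, limma adjusted p = 0.0787). pst, a gene of antiviral resistance, read 5.84 and 5.79 against 6.22, 6.06 and 6.13 (0.32, limma adjusted p = 0.130). Both were named because their groups did not overlap, with lgl on the low side for vig and on the high side for pst. Groups did not overlap for 75.0% of the 8 probe sets of this list. The share was 34.9% of all probe sets and 48.0% of the brighter ones.

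Rm62, a DEAD-box helicase linked to miRNA processing and RNA interference, had FRT82B arrays 1.51 apart. It read 10.12 and 11.63 in FRT82B and 12.36, 12.26 and 12.00 in lgl, all lgl arrays higher. The change of 1.33 (SE 0.48, limma adjusted p = 0.253) was 2.09 against FRT82B array 1 and 0.57 against array 2. Of the other nuclear genes, the cap-binding subunit Cbp20 read 8.93 and 8.79 against 8.74, 8.53 and 8.77 (-0.18, limma adjusted p = 0.441). Fmr1, the gene of the fragile X protein, an RNA-binding partner of the Argonaute complexes that the study links to Lgl, is named here after its values were seen. It read 8.20 and 8.91 against 8.52, 8.51 and 8.31 on its brighter probe set. There the lgl arrays fell between the FRT82B arrays (-0.10, limma adjusted p = 0.831).

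Of the chaperones that open Argonaute for loading, 6 genes of 7 were measured and 0 were called. Their median change was -0.30, with 5 of 6 below 0, against 58.1% of all probe sets and 49.0% of the brighter ones. Every lgl array was lower for 3 of 6, against 20.2% of all probe sets and 2205 of the 9384 brighter ones. Stip1, the organiser that joins Hsp70 to Hsp90, read 11.07 and 10.80 against 10.36, 10.45 and 10.20 (-0.60, SE 0.13, limma adjusted p = 0.111). Cdc37, a co-chaperone of Hsp90, read 9.87 and 9.89 against 9.27, 9.41 and 9.35 (-0.53, SE 0.07, limma adjusted p = 0.0503). The co-chaperone p23 read 11.86 and 11.48 against 11.27, 11.25 and 11.21 (-0.43, SE 0.13, limma adjusted p = 0.199). For these 3 all lgl arrays were below both FRT82B arrays, whereas the other 3 genes overlapped, Hsc70-4 at -0.01, Droj2 at 0.16 and Fkbp59 at -0.17.

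**Figure D4:**
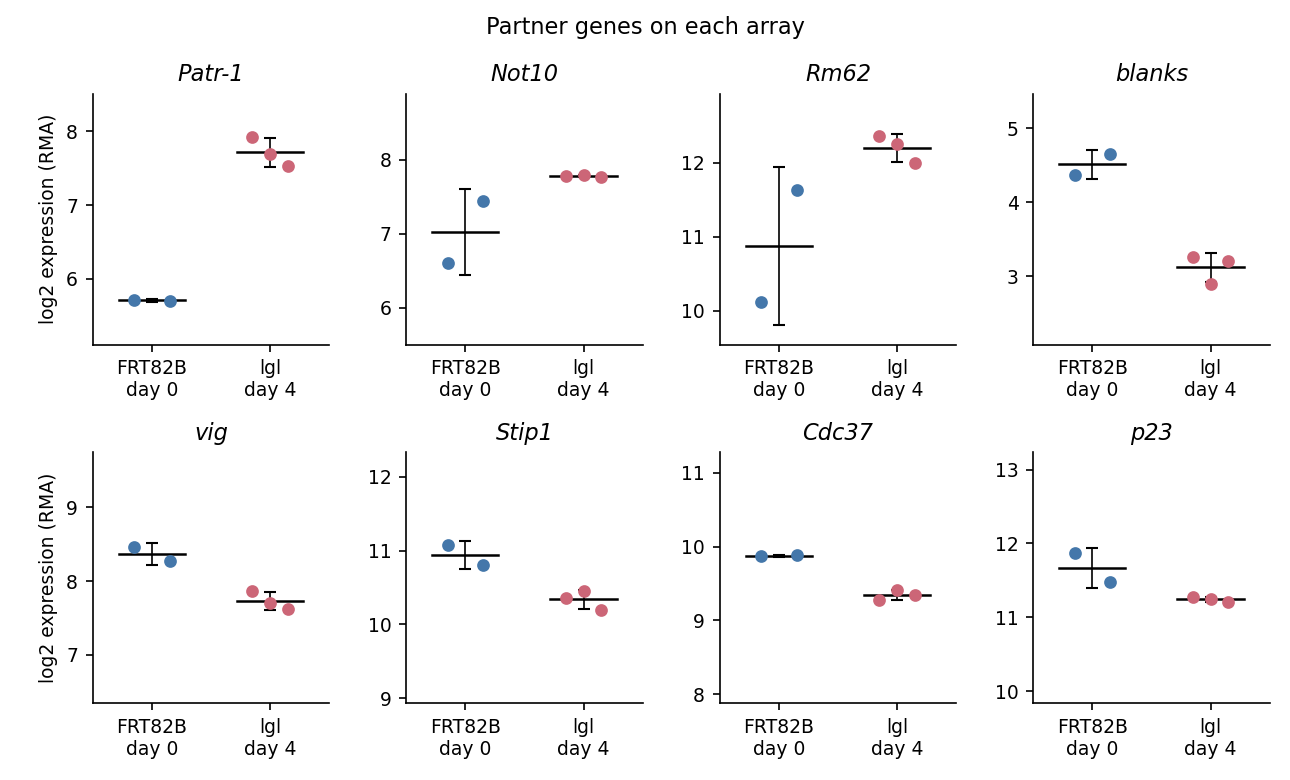
Log2 expression (RMA) on each array of 8 genes of the wider lists, FRT82B day 0 in blue (2 arrays) and lgl day 4 in red (3 arrays), with mean and SD; each panel spans 3.4 log2 units. Patr-1 is higher and blanks lower on every lgl array with close controls, while Rm62 and Not10 have FRT82B arrays far apart.

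Of the genes that act on small RNA ends and turnover, 0 of 7 were called, with a median of -0.03 over 8 probe sets and all 8 overlapping between groups. Hen1, the methyltransferase that protects siRNA ends, named after its values were seen, read 5.87 and 5.08 against 5.70 on each lgl array, one of 569 probe sets (3.03%) with a single value on all 3 lgl arrays. The 13 genes of translational regulators had a median of -0.04 and 0 called. The TRIM-NHL gene mei-P26 read 6.93 and 6.68 against 6.32, 6.51 and 6.53 (-0.35, limma adjusted p = 0.221), smg 7.11 and 7.22 against 7.44, 7.42 and 7.38 (0.25, limma adjusted p = 0.156), and orb2 3.99 and 3.96 against 4.21, 4.28 and 4.14 (0.24, limma adjusted p = 0.191). All 3 were named because their groups did not overlap, and the steps were small. Groups did not overlap for 33.3% of the 15 probe sets of this list, against 34.9% of all probe sets. The probe sets of mir-4978 and mir-4973 read at most 3.17 and 3.58 on any array, under each array's median, and were not called.

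The labels and the tissue were checked on the same arrays. The probe set of l(2)gl, the mutated gene, fell from 7.74 and 6.74 to 2.44, 2.40 and 2.24 (-4.88, SE 0.31, limma adjusted p = 0.0209), a call that was lost without any 1 lgl array (adjusted p = 0.150 to 0.157) and with the replicate block (0.308) while the arrays stayed far apart. Some markers lay well above the array medians (3.79 to 3.86) on all 5 arrays. These included elav of neurons (8.83 or more), repo of glia (7.66 or more), and ey (7.10 or more) and dac (7.73 or more) of the eye disc list. Other markers were dimmer. In the eye disc list eya read 5.60 to 6.83, the gene so 4.23 to 5.18 and gl 3.23 to 4.10. Of Dll, 1 probe set read 3.28 to 3.41, and the others 4.32 to 6.18 and 5.19 to 6.51. The bright ey and dac are not taken to show disc tissue. Of the neuronal brp, 2 of 4 probe sets read 2.77 to 3.45. Mean levels of several marker lists moved with the groups. The mean log2 level of 6 neuroblast markers was 7.12 and 7.37 in FRT82B, whereas the lgl arrays lay at 8.35 to 8.55. Of their 7 probe sets 5 were higher on every lgl array, while ase (0.15, limma adjusted p = 0.759) and a dim probe set of grh (-0.01) overlapped. The mean of 6 ring gland markers was 6.77 and 7.07 against 3.61 to 4.35, with 6 of 6 lower on every lgl array. Trachea markers (3 measured of 4) stood at 4.41 and 5.71 against 6.74 to 6.85, but only serp and verm were higher on every lgl array, and btl overlapped (-0.18). Haemocyte markers (6 of 6) stood at 5.82 and 5.50 against 5.84 to 6.71. Of their 7 probe sets, 2 (NimC1 and 1 of Pxn) were higher on every lgl array, 1 (the other of Pxn) was lower and 4 overlapped. Fat body markers (2 of 4) stood at 5.43 and 7.10 against 7.20 to 10.18, with Lsp2 higher on every lgl array and Fbp1 overlapping. Germline markers (6 of 6) stood at 3.21 to 3.30 on all arrays, with bam higher (0.46) and nanos lower (-0.22) on every lgl array and 4 overlapping. Neuron markers (4 of 5) were lower in the mean, at 6.07 and 6.46 against 5.64 to 5.81. Of their 7 probe sets, 2 were lower on every lgl array, fne (-1.46, limma adjusted p = 0.0245) and nSyb, and 5 overlapped. Muscle markers (3 of 5) read 5.43 and 4.35 against 3.86 to 4.12, with 1 of 3 probe sets, Mp20, lower on every lgl array. Glia markers (4 of 5), at 8.31 and 8.75 against 8.24 to 8.35, overlapped, with Gs2 down (-2.01, limma adjusted p = 0.0449) and repo at 0.78 (limma adjusted p = 0.227). Eye disc markers (6 of 6) stood at 5.12 and 5.86 against 5.73 to 5.94. Salivary gland markers (4 of 4) stood at 4.44 and 6.19 against 4.02 to 4.87. Both lists overlapped in the mean as well. In them 1 Dll probe set was higher (1.27) and Sgs8 lower (-1.42) on every lgl array, and the other probe sets overlapped. Among control probe sets of RNA quality, the 3′ minus 5′ difference was 0.71 and 0.73 in FRT82B and 0.35 to 0.58 in lgl for actin, 1.68 and 2.01 against 1.41 to 1.65 for eIF4a, and 1.21 and 1.37 against 1.18 to 1.36 for GAPDH, which overlapped. The part of these shifts in the values of the small RNA genes was not tested.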

How the data were processed

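The authors hybridised labelled RNA to Affymetrix Drosophila 2.0 arrays, corrected the background and normalised with RMA in Bioconductor, and deposited the log2 values (versions not given in the sources used here). Arrays were grouped by their titles, which call them biological replicates. A further FRT82B array that the submitters set aside for quality was not analysed here. The deposited values differed slightly in distribution, with array medians of 3.79 to 3.86 and upper quartiles of 7.10 to 7.24. Of the probe sets, 183 controls were left out and 18769 tested, of which 13647 had 1 gene symbol, 402 several and 4720 none here. Symbols were matched through gene identifiers to a table of current names, without coordinates or sequences, and 9 names were set by hand. Groups were compared with limma 3.58.1 (lmFit, eBayes, R 4.3.3), two-sided, and p-values were adjusted by Benjamini-Hochberg across the whole table. They measure the spread between these arrays, whose number limits the precision. The procedure was tested on simulated data.

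Genes named were the members, every called gene of the wider lists and up to 3 further genes a list with the largest change among those whose groups did not overlap. Members and lists were chosen with earlier results of these data known. As alternatives, arrays were normalised by quantiles a further time, centred on their medians, weighted by quality or left out in turn. The fit was also run on brighter probe sets, with a robust variance prior that follows intensity, with a block for replicate number, with other fold thresholds and on averaged probe sets of a gene.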

Additional observations from a re-analysis of the deposited data

How the results depend on the processing

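The members kept 0 calls in all 13 alternatives, and drosha, pasha, Ranbp21, loqs and Dcr-2 kept their sign in 11 of 11. gw turned to 0.0591 after a further quantile normalisation and to 0.0166 after median centring, and ran from -0.0697 to 0.00513 with 1 array left out. r2d2 ran from -0.31 to 0.11 with 1 array left out.

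Over all probe sets, limma called 197. It called 395 among brighter probe sets only, 305 with no fold threshold, 302 at a log2 change of 0.5, 12 with array weights and 0 with the replicate block (2074 at an unadjusted p under 0.05). With 1 array left out the count ran from 0 to 1306: 0 without any 1 lgl array (2093 to 2476 at an unadjusted p under 0.05), 71 without FRT82B array 1 and 1306 without FRT82B array 2, each fit with a lone control array taking its spread from the mutants. Of the wider lists 2 probe sets were called, 1 among brighter probe sets (blanks was not among those), 0 with array weights, 0 with the replicate block, and 0 to 6 with 1 array left out, the 6 being without FRT82B array 2. In the block, lgl array 3 has no control of its number. Deviations of same-numbered arrays correlated at 0.03 and 0.07, and those of FRT82B array 1 and lgl array 3 also at 0.03. With 2 control arrays, whose deviations mirror each other, such values can neither show nor exclude pairing. The numbers were not taken as pairs.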
